A study of Mus musculus with 5 samples.

Results

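The bHLH-Orange transcriptional repressors of the Hes and Hey families, together with the feedback inhibitor Nrarp, were examined across newborn mouse atria. The atria had either both alleles or 1 allele floxed of Nkx2-5, a homeobox gene needed for heart development. The 7 genes, Hey1, Hey2, Heyl, Hes1, Hes5, Hes6 and Nrarp, were taken by gene symbol from a table of 40624 genes, and each symbol matched 1 row. Tissue was atria of C57BL/6 mice at postnatal day 1. The 2 mutant libraries, mutants 5 and 7, carried SLN-Cre with both Nkx2-5 alleles floxed. The 3 control libraries, controls 2, 4 and 6, carried the same SLN-Cre with 1 floxed and 1 intact Nkx2-5 allele. Cre was thus present in every library, and the controls were not wild type. SLN is the gene name of sarcolipin, which is made in atrial myocytes, so the recombinase was directed to muscle cells, whereas the RNA came from whole atrial tissue with its endocardial, vascular, epicardial and interstitial cells. The sources used here do not say whether each library came from a separate animal or from pooled animals, and p-values therefore describe only how far these libraries vary, which may be technical.

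When a ligand on a neighbouring cell activates a Notch receptor, the receptor's intracellular part is cut free, enters the nucleus and joins the DNA-binding protein RBPJ, and genes of the Hes and Hey families are the classical targets that are then switched on. Their products bind DNA as dimers and recruit corepressors, which silences further genes. In the heart, Hey1 is known from the atrial myocardium and endocardium and Hey2 from the compact ventricular wall, and both restrict the atrioventricular canal. Heyl is known from vascular smooth muscle and pericytes, Hes1 from many tissues, and Hes5 from neural progenitors. Hes6 differs from the others in that it antagonises Hes1 and favours differentiation, as shown in neural and muscle cells. Nrarp is not a bHLH factor: it is a small ankyrin repeat protein, itself a Notch target, that binds the Notch nuclear complex and dampens it.

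Libraries held 78841494 and 69648013 gene counts in mutants 5 and 7, against 58501214 to 60899334 in the controls. Nkx2-5 (ENSMUSG00000015579) was at 5.79 and 5.21 CPM (gene counts divided by the library total and scaled by TMM) in mutants 5 and 7, against 76.8, 72.1 and 71.3 CPM in controls 2, 4 and 6. Its level was 7.51% of control by edgeR's quasi-likelihood fit, and the library labels therefore matched the targeted gene. The atrial myosin light chain gene Myl7 was at 9949 to 11074 CPM in all 5 libraries. The ventricular light chain gene Myl2 was at 8.26 to 95.9 CPM. This pair, picked after its values were seen, matched the atrial label. The 11 ventricular markers read below summed to 2484 to 3277 CPM, most of it Myh7, so the check rests on the pair alone.

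The start regions of the genes are shown because Notch acts on the family through RBPJ sites near the promoter, and because the gene that changed most and the gene that was nearly silent can be set side by side. Windows of 300 bases, 250 before and 50 after the annotated start, were taken from RefSeq (GRCm38.p6), which held entries for Hey2, Hes5, Hes6 and Nrarp. Capitals mark the RBPJ core letters TGGGAA on either strand (TTCCCA where the site lies on the other strand). The windows are chr10:30842734-30843033 on the minus strand for Hey2, chr4:154960673-154960972 on the plus strand for Hes5 and chr2:25180508-25180807 on the plus strand for Nrarp.
Hey2: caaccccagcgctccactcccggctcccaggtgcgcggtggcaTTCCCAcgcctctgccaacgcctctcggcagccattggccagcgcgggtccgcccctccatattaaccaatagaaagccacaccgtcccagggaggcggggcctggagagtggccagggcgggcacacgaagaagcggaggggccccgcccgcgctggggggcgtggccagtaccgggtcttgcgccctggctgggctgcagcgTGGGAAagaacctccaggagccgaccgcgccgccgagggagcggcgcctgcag
Hes5: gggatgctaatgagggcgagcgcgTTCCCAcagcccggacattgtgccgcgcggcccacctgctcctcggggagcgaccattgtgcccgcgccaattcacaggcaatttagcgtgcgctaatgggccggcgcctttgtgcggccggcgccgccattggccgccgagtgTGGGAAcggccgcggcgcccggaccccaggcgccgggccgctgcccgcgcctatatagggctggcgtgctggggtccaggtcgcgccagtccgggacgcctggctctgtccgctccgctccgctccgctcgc
Nrarp: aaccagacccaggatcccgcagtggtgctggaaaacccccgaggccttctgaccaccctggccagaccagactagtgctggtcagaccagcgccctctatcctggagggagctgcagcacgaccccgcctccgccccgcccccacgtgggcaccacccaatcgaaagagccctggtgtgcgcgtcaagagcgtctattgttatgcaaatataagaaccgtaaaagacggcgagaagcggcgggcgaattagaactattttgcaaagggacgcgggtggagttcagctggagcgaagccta
The Hey2 and Hes5 windows each held the core at 2 places, 1 on each strand. In Hey2 the matches began at positions -207 and -3 from the start, and in Hes5 at positions -226 and -82, with no position 0. Each of these matches was also a match to the longer form GTGGGAA, which contains the core. The core was present in 25.6% of all 32851 windows of this length and the longer form in 6.38%, while 0.256% held the longer form at 2 or more places. Neither the Nrarp window nor either of the 2 Hes6 windows held the core. The E-box CACGTG, a letter sequence that Hes and Hey proteins can bind, was found in the Nrarp window at position -108 and in 7.15% of all windows. The N-box CACNAG was found in Nrarp and in the window of 1 Hes6 start, and in 42.5% of all windows. The NKX2-5 motif TNAAGTG and the GATA motif AGATAA were in none of the 5 windows, against 11.5% and 11.2% of all windows. All motifs were searched on both strands, and a match describes letters only.

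Loss of Nkx2-5 went with a large rise of Hey2 and smaller falls of Hey1 and Hes6, whereas the differences of Hes1, Heyl and Nrarp did not pass the test and Hes5 was almost undetected. Of the 7 genes, 6 had enough counts to be tested. Of these 6, 1 was called higher and 2 lower at an adjusted p under 0.05, where 6.58% of all 17835 tested genes were called, 3.02% higher and 3.57% lower. The mutant values lay wholly above or below the control values in 4 of the 6, as they did in 37.9% of tested genes (18.6% higher and 19.2% lower). The 3 called genes were also called by DESeq2, which called 11.9% of its genes, and by limma-voom, which called 6.12%. The genes were chosen with earlier results of these data known, so their share of calls is not evidence of its own. The same holds for each gene list read below, the atrial and epicardial lists among them. Fewer cells of a type and less RNA per cell cannot be told apart in such bulk tissue.

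**Figure D1:**
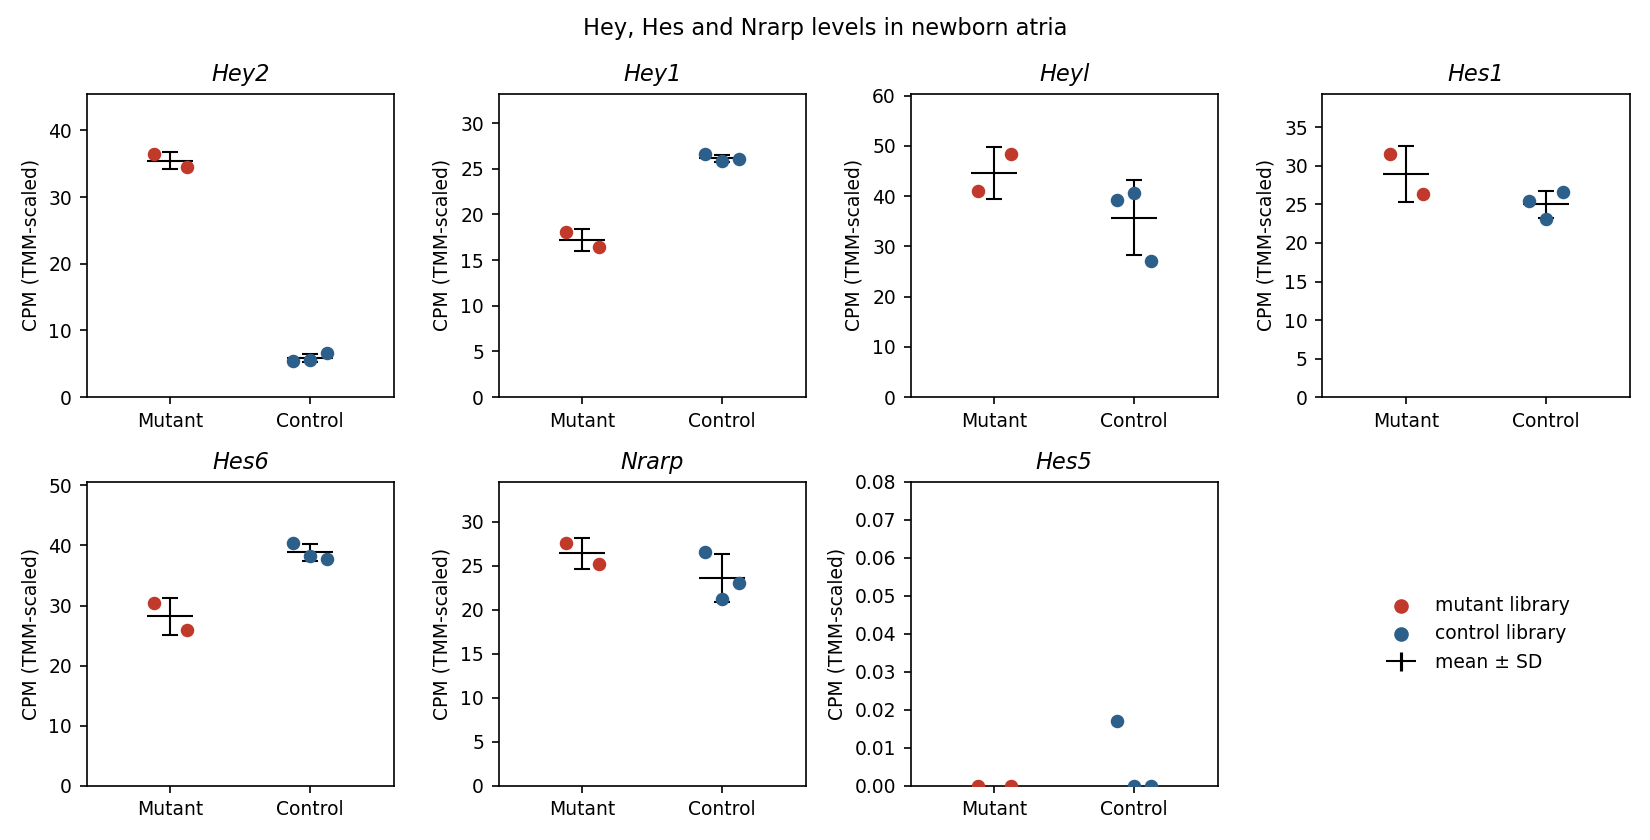
TMM-scaled CPM of each gene, mutant libraries (red, n = 2) left of control libraries (blue, n = 3), with points for libraries and a black bar for the mean ± SD (points alone for Hes5). Hey2 lay at 34.5 to 36.4 CPM in mutants and 5.48 to 6.56 CPM in controls, and Hey1 and Hes6 lay lower in both mutants than in any control.

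Hey2 (ENSMUSG00000019789; chromosome 10, 30553542 to 30562454, minus strand, mm9), the repressor best known from the ventricular wall, had 36.4 and 34.5 CPM in mutants 5 and 7, against 5.48, 5.58 and 6.56 CPM in controls 2, 4 and 6. The mutants were nearly equal to each other and far above every control. The mean was 35.5 ± 1.34 CPM (SD, n = 2) in mutants and 5.87 ± 0.600 CPM (SD, n = 3) in controls. Hey2 thus rose 6.04-fold, with a 95% interval of 5.15 to 7.08, or 2.59 ± 0.10 (SE) on the log2 scale. In edgeR, where p-values of the quasi-likelihood test were adjusted by Benjamini-Hochberg, its adjusted p was 6.6e-06, the fifth smallest of all tested genes. By size, 11 called genes rose more. The call held without any 1 library, at log2 fold changes of 2.55 to 2.68. The authors' deposited table gave Hey2 a log2 ratio of 2.57, also mutant over control.

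Hey1 (ENSMUSG00000040289; chromosome 3, 8664496 to 8666870, minus strand, mm9), the family member usual in atrial myocardium, went the other way. It had 18.04 and 16.4 CPM in mutants 5 and 7, against 26.6, 25.8 and 26.1 CPM in controls 2, 4 and 6. The controls were within 1 CPM of each other and both mutants lay well below them. On the log2 scale Hey1 fell by 0.60 ± 0.08 (SE), which is 65.8% of control, with a 95% interval of 0.58- to 0.75-fold. Its adjusted p in the same edgeR fit was 4.3e-03. The call held without any 1 library, at log2 fold changes of -0.68 to -0.54. Hey1 shared no 50-base stretch of its transcripts with another gene of the GENCODE vM21 reference, and neither did Hey2, Heyl, Hes1 or Hes6.

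Heyl (ENSMUSG00000032744; chromosome 4, 122911110 to 122923873, plus strand, mm9), the vascular mural member of the trio, had 40.9 and 48.3 CPM in mutants 5 and 7, against 39.3, 40.7 and 27.2 CPM in controls 2, 4 and 6. Mutant 5 was level with controls 2 and 4, and the gap between the groups came from mutant 7 on one side and control 6 on the other. Its log2 fold change of 0.32 ± 0.19 (SE) did not pass (adjusted p = 0.40, edgeR), and the 95% interval of the fold ran from 0.91 to 1.71. Without control 6 the log2 fold change was 0.16, and without mutant 7 it was 0.19.

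The balance within the Hey trio therefore differed between the groups. Per kilobase of the deposited gene length, Hey2 made up 46.9% and 44.6% of the trio's summed CPM in mutants 5 and 7, against 9.83%, 10.03% and 13.1% in controls 2, 4 and 6. Hey1 made up 26.9% and 24.5% in mutants 5 and 7, against 55.2%, 53.7% and 60.1% in controls 2, 4 and 6. Hey2 was the most abundant of the trio in both mutants and the least abundant in every control. The within-library ratio of Hey2 to Hey1, which needs no scaling between libraries, was 1.74 and 1.82 in mutants, against 0.178, 0.187 and 0.217 in controls. The summed level of the trio was 30.4 CPM per kilobase in each mutant, against 21.9, 21.8 and 19.7 in controls 2, 4 and 6. These shares describe the libraries and carry no test.

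**Figure D2:**
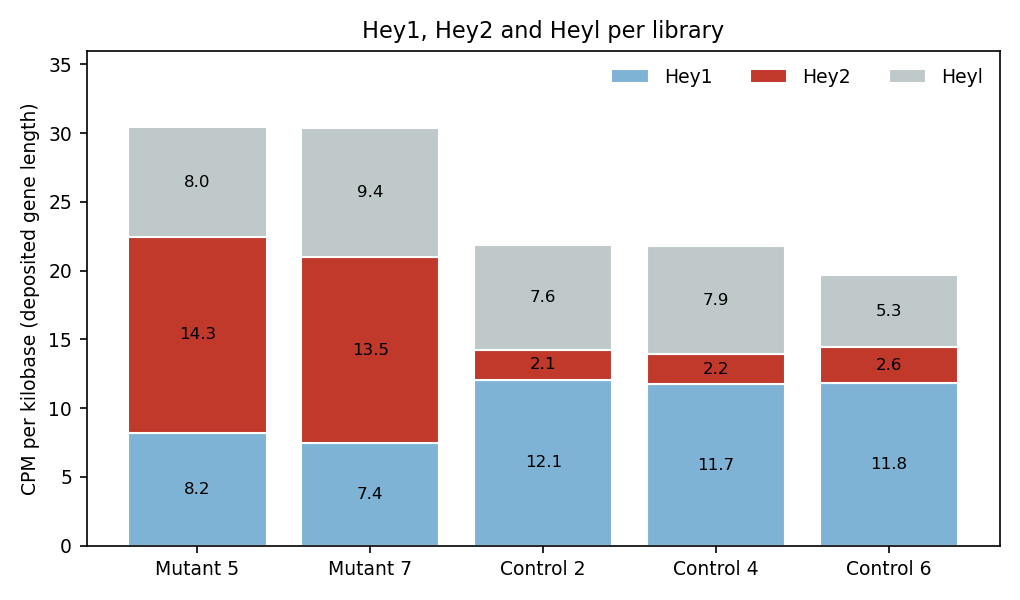
Stacked CPM per kilobase of Hey1, Hey2 and Heyl in each library, mutants at the left, with each gene's level printed in its segment. Hey2 stood at 14.3 and 13.5 in mutants and at 2.15 to 2.57 in controls, while the Hey1 segment was 8.19 and 7.44 in mutants and 11.7 to 12.1 in controls.

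Hes1 (ENSMUSG00000022528; chromosome 16, 30065677 to 30067514, plus strand, mm9), the most general of the Notch-induced repressors, had 31.5 and 26.4 CPM in mutants 5 and 7, against 25.4, 23.1 and 26.6 CPM in controls 2, 4 and 6. Mutant 5 stood alone at the top, and mutant 7 lay within the range of the controls. The log2 fold change of 0.21 ± 0.10 (SE) did not pass (adjusted p = 0.29, edgeR), with a 95% interval of 0.99- to 1.36-fold. A change as large as that of Hey2 lies outside this interval.

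Hes6 (ENSMUSG00000067071; chromosome 1, 93308635 to 93309714, minus strand, mm9), the antagonist of Hes1, had 30.4 and 26.0 CPM in mutants 5 and 7, against 40.5, 38.3 and 37.7 CPM in controls 2, 4 and 6. The groups did not overlap. On the log2 scale Hes6 fell by 0.46 ± 0.09 (SE), which is 72.6% of control (adjusted p = 0.020, edgeR). The call was lost without control 2 (adjusted p = 0.078, edgeR), control 4 (adjusted p = 0.065, edgeR) or mutant 7 (adjusted p = 0.058, edgeR), at log2 fold changes of -0.43, -0.48 and -0.36. In the authors' deposited table its adjusted p was 3.9e-03, where 4.54% of genes with a value lay under 0.05.

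Hes5 (ENSMUSG00000048001; chromosome 4, 154335105 to 154335784, plus strand, mm9), a Notch target of neural progenitors, had 0 counts in both mutants and in controls 4 and 6, and 1 count in control 2. A count of 0 allows up to 0.038 and 0.044 CPM in mutants 5 and 7, against 0.050 and 0.049 CPM in controls 4 and 6, by counting error alone. Hes5 was therefore not tested and no fold is given. Of its 50-base stretches, 21.8% also occur in Gm20421, which shares 433 exonic bases with it on the opposite strand in the reference.

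Nrarp (ENSMUSG00000078202; chromosome 2, 25036631 to 25036975, plus strand, mm9), the feedback inhibitor of the Notch nuclear complex, had 27.6 and 25.2 CPM in mutants 5 and 7, against 26.5, 21.2 and 23.0 CPM in controls 2, 4 and 6. Control 2 lay between the mutants, so the groups overlapped. Its log2 fold change of 0.16 ± 0.11 (SE) did not pass (adjusted p = 0.44, edgeR), with a 95% interval of 0.95- to 1.32-fold. In the reference Nrarp shares 2051 exonic bases with Gm38287 on the opposite strand. The sources used here do not say whether counting was strand-specific, so reads of the pair could not be told apart.

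**Figure D3:**
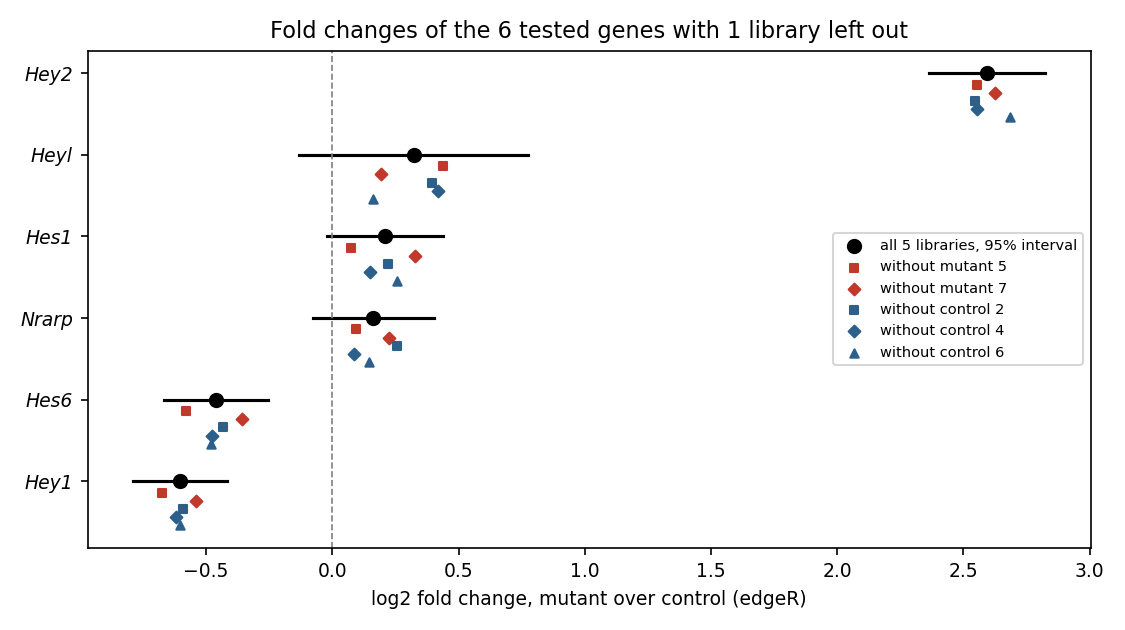
Log2 fold changes, mutant over control, of the 6 tested genes by edgeR (black point) with their 95% intervals (line), and below each the value with 1 library left out (red, mutants; blue, controls). Only the intervals of Hey2, Hes6 and Hey1 lie clear of 0, and no left-out library changes the sign of any of the 6.

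Set side by side per kilobase of the deposited length, the order of the levels in mutants was Hey2 (mean 13.9 CPM per kilobase), Nrarp (10.3), Hes1 (10.1), Hes6 (9.06), Heyl (8.68) and Hey1 (7.81). In controls it was Hes6 (12.5), Hey1 (11.9), Nrarp (9.17), Hes1 (8.76), Heyl (6.95) and Hey2 (2.30). Among the mutants Hey2 stood clear of Nrarp, but the library values of each of the other neighbours in that order overlapped. Among the controls only Nrarp and Hes1 overlapped as neighbours, although Hes6 and Hey1 were barely apart (lowest 12.12 for Hes6 and highest 12.07 for Hey1, in CPM per kilobase). The order of Hes1 and Hes6 depended on the length used. Per kilobase of the longest coding transcript in the reference, Hes6 and Hes1 led in both groups, with Hes6 at 21.1 in mutants and 29.1 in controls and Hes1 at 19.7 in mutants and 17.1 in controls. Hey2 then came after them at 13.9 in mutants, and by either length it was the lowest of the 6 in controls.

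Sex was read in each library from Xist and Ddx3y, and each group held 1 male library. Within males (mutant 5 over control 4) and within females (mutant 7 over controls 2 and 6) the log2 ratio of Hey2 was 2.71 and 2.52. That of Hey1 was -0.52 in males and -0.68 in females, and that of Hes6 was -0.33 in males and -0.59 in females. The 3 called genes thus kept their direction in both sexes, without a test. Hes1 was higher by 0.45 in males and by 0.02 in females, and Nrarp by 0.38 and 0.02. Heyl showed the reverse order, 0.01 in males and 0.54 in females.

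By the root mean square difference between log2 CPM profiles centred over the 5 libraries, the genes nearest to Hey2 were Smyd2 (0.18), BC048546 (0.34), Sfrp5 (0.34), Alox8 (0.37) and Gucy2e (0.43). Smyd2, a lysine methyltransferase gene of muscle, had 127 and 146 CPM in mutants 5 and 7, against 27.8, 26.1 and 30.5 CPM in controls 2, 4 and 6. Its exons overlap those of the opposite-strand gene Gm37422 by 814 bases. Nearest to Hey1 were Acp6 (0.02), Stat5a, Map1lc3a, Ezr and Mrm1 (each 0.03), and nearest to Hes6 were Perp, Itm2c, Pard6b and Apbb1 (each 0.02) and Mdp1 (0.03). The distances from Hey2 were larger than those from Hey1 and Hes6. The measure depends on the size of the change, so distances from different members cannot be compared. Of all tested genes, 55 had a larger absolute log2 fold change than Hey2.

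Few other Notch pathway genes passed the test. Over 4 lists of relatives, receptors and ligands, processing factors and nuclear cofactors, 62 of 66 genes were tested, 4 were called higher, 1 lower and 57 did not pass. That is 8.06% called, close to the 6.58% of all tested genes. The median log2 fold change was 0.05, against 0.01 over all tested genes, with 35 values above 0 and 27 below. With 1 library left out, 0 to 12 were called higher (12 without mutant 5 and 0 without control 4) and 0 to 2 lower, so these counts rest on single libraries.

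**Figure D4:**
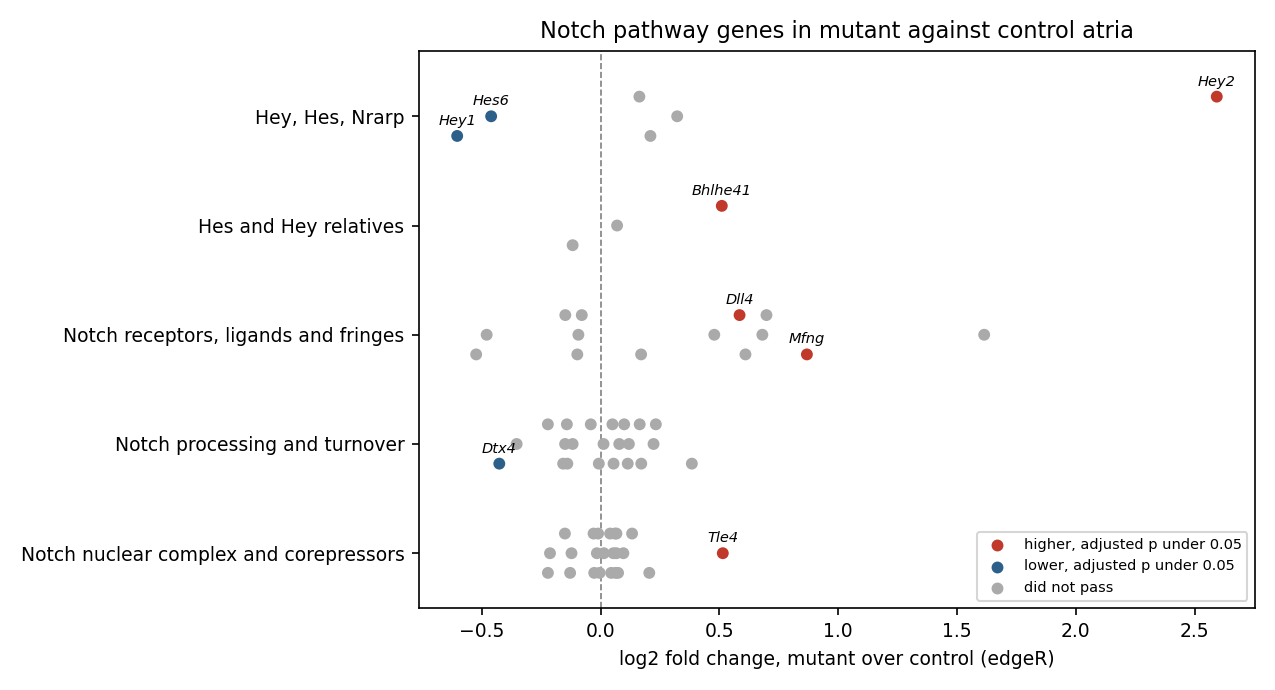
Log2 fold changes, mutant over control, by edgeR for the tested Hey, Hes and Nrarp genes and those of 4 Notch pathway lists, each point 1 gene, red or blue where the adjusted p was under 0.05. Hey2 at 2.59 stands apart from the pathway lists, whose called genes lie between -0.43 and 0.87.

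Among the other bHLH-Orange relatives 3 of 6 genes were tested, with a median of 0.07. Bhlhe41, a circadian repressor gene, rose by 0.51 ± 0.12 (SE) on the log2 scale (adjusted p = 0.042, edgeR), with 15.6 and 18.4 CPM in mutants 5 and 7, against 13.4, 11.1 and 11.3 CPM in controls 2, 4 and 6. It lost its call without any 1 control or without mutant 7 (highest adjusted p = 0.17, edgeR), and it shares 1280 exonic bases with Gm43909 on the opposite strand. Bhlhe40 at -0.12 and Hes7 at 0.07 did not pass. Hes2, Hes3 and Helt had at most 1 count in any library.

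Of 14 tested receptor, ligand and fringe genes, 2 rose (3.02% of all tested genes did) and 12 did not pass, with a median of 0.32. The groups did not overlap in 7 of the 14, against 37.9% of all tested genes. Dll4, an endothelial Notch ligand gene, had 19.0 and 25.4 CPM in mutants 5 and 7, against 15.3, 13.6 and 15.5 CPM in controls 2, 4 and 6. It rose by 0.58 ± 0.13 (SE) on the log2 scale (adjusted p = 0.035, edgeR), a call lost without any 1 control or without mutant 7 (highest adjusted p = 0.13, edgeR). Mfng, a fringe gene whose enzyme adds sugars to Notch receptors, had 11.3 and 16.4 CPM in mutants, against 8.24, 8.13 and 6.39 CPM in controls 2, 4 and 6. It rose by 0.87 ± 0.18 (adjusted p = 0.032, edgeR), a call lost in the same 4 cases (highest adjusted p = 0.10, edgeR). Mutant 7 was above mutant 5 for both genes.

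Mutant 7 was also the highest library for the receptor genes. Notch1 had 74.7 and 137 CPM in mutants 5 and 7, against 70.2, 80.1 and 78.1 CPM in controls 2, 4 and 6. Notch3, the mural cell receptor gene, had 38.7 and 77.8 CPM in mutants 5 and 7, against 42.8, 41.0 and 30.8 CPM in controls 2, 4 and 6. Notch4, an endothelial receptor gene, had 40.5 and 62.5 CPM in mutants 5 and 7, against 30.4, 33.3 and 32.6 CPM in controls 2, 4 and 6. None of the 3 passed (adjusted p = 0.44, 0.44 and 0.079 for Notch1, Notch3 and Notch4, edgeR), nor did Notch2 at -0.09 or the ligand gene Jag1 at 0.17. Without mutant 5 the log2 fold changes of Notch1, Notch3, Notch4 and Jag1 were 0.85, 1.03, 0.96 and 0.41 and each passed (highest adjusted p = 0.0495, edgeR), whereas without mutant 7 those of Notch1 and Jag1 were -0.032 and -0.12. Hey2, by contrast, differed little between the mutants, and Hey1, Hes1, Hes6 and Nrarp were lower in mutant 7 than in mutant 5. Notch1 shares 1068 exonic bases with 0610009E02Rik, Notch3 488 with Gm17276 and Dll4 214 with Gm14207, each on the opposite strand.

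Of the other ligand genes, Dll1 had 5.92 and 7.03 CPM in mutants 5 and 7, against 9.02 to 9.04 CPM in controls, at a log2 fold change of -0.48 ± 0.12 (SE; adjusted p = 0.054, edgeR). The non-canonical ligand gene Dlk1 was at -0.52 (adjusted p = 0.066, edgeR). The low-expressed Dlk2, at most 1.01 CPM, was at 1.61 (adjusted p = 0.097, edgeR). Of these, Dll1 and Dlk1 had both mutants below every control, as did 19.2% of all tested genes. Dlk2 had both above, as did 18.6%.

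Of 22 processing and turnover genes, all tested, 1 fell (3.57% of all tested genes did) and 21 did not pass, with a median of 0.03. The groups did not overlap in 13 of the 22, where 8 were higher and 5 lower in both mutants, against 37.9% of all tested genes. Dtx4, a Deltex ubiquitin ligase gene, fell by 0.43 ± 0.09 (SE) on the log2 scale (adjusted p = 0.028, edgeR), with 15.6 and 13.99 CPM in mutants 5 and 7, against 20.8, 18.8 and 20.1 CPM in controls 2, 4 and 6. Its call was lost without any 1 control or without mutant 7 (highest adjusted p = 0.13, edgeR). Fbxw7, which marks the Notch intracellular domain for degradation, was at -0.35, Dtx3l at 0.38 and Mib1, a ligase needed for ligand activity, at 0.22, and none of them passed. The processing protease gene Adam17 was at 0.17.

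Of 23 nuclear cofactors, all tested, 1 rose (3.02% of all tested genes did) and 22 did not pass, with a median of 0.04. The groups did not overlap in 7 of the 23, where 2 were higher and 5 lower in both mutants, against 37.9% of all tested genes. Tle4, a Groucho corepressor gene whose product Hes proteins recruit, had 18.7 and 17.96 CPM in mutants 5 and 7, against 13.2, 12.6 and 12.8 CPM in controls 2, 4 and 6. It rose by 0.51 ± 0.09 (SE) on the log2 scale (adjusted p = 0.011, edgeR), a call lost without control 4 (adjusted p = 0.057, edgeR). Rbpj, the DNA-binding partner of Notch, had 59.6 and 54.9 CPM in mutants 5 and 7, against 54.6, 53.6 and 56.2 CPM in controls 2, 4 and 6, at 0.06 ± 0.07 (SE). Cir1, Snw1, Kat2b and Tle6 lay between -0.22 and -0.13, each with both mutants below every control, and did not pass (lowest adjusted p = 0.20, edgeR).

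Other genes reported as direct Notch targets gave 1 rise among 13 tested (3.02% of all tested genes rose), with a median of 0.36. That gene was Acta2, smooth muscle actin, which rose by 1.84 ± 0.14 (SE) on the log2 scale (adjusted p = 9.3e-04, edgeR), with 1693 and 1244 CPM in mutants 5 and 7, against 366 to 435 CPM in controls. Acta2 is also a marker of smooth muscle and of immature heart muscle. The remaining targets did not pass, among them Myc at 0.44, Ccnd1 at 0.36, Bcl6 at 0.41 and Efnb2 at 0.38. Among 14 tested bHLH partners and cofactors the median was 0.06, and the T-box factor gene Tbx20 rose by 0.62 ± 0.09 (adjusted p = 7.4e-03, edgeR). Gata4, whose product Hey proteins bind, was at 0.19 ± 0.06, with 252 and 238 CPM in mutants 5 and 7, against 213, 220 and 213 CPM in controls 2, 4 and 6, and did not pass (adjusted p = 0.14, edgeR).

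Atrial chamber genes, several of which Hey2 keeps low in the mouse ventricle, are given beside its rise. The part of Hey2 in their changes was not tested, and cannot be told apart from that of losing Nkx2-5 itself. Of 16 atrial genes tested, 4 fell (3.57% of all tested genes did), 1 rose (3.02% did) and 11 did not pass. The list median was -0.05. The falls were the natriuretic peptide gene Nppa (-2.58), the adrenomedullin gene Adm (-2.54), the peptide amidation enzyme gene Pam (-1.51) and the connexin gene Gja5 (-0.68), in log2 fold change. Nppa shares 532 exonic bases with Gm13054 on the opposite strand, and Gja5 165 with Gpr89. The rise was that of the growth factor gene Bmp10, by 0.53, which did not pass when control 4, control 6 or mutant 7 was left out (adjusted p up to 0.10 in edgeR). Myl7 and the sarcolipin gene Sln did not pass. Of 12 atrioventricular canal genes, which Hey1 and Hey2 restrict in the embryo, 1 fell and 11 did not pass. Of all tested genes 3.57% fell, and the median of the 12 was -0.06. The canal repressor genes Tbx2 and Tbx3 lay on opposite sides, at -0.30 (adjusted p = 0.19, edgeR) and 0.86 (adjusted p = 0.22, edgeR). Tbx3 had 15.6 and 15.7 CPM in mutants 5 and 7, against 10.7, 10.03 and 5.05 CPM in controls 2, 4 and 6. The growth factor gene Bmp4 was at 0.59 (adjusted p = 0.090, edgeR), the calcium channel gene Cacna1g at -0.65 (adjusted p = 0.057, edgeR) and the connexin gene Gjc1 at -0.17 (adjusted p = 0.26, edgeR). In each of these 5 genes, named for their small p, the groups did not overlap. That held for 6 of the 12 genes on the list, against 37.9% of all tested genes. The gene that fell was the Wnt agonist gene Rspo3, from a low level: it had 0.782 and 0.923 CPM in mutants 5 and 7, against 1.83, 2.35 and 1.79 CPM in controls 2, 4 and 6. Its log2 fold change was -1.22, and it passed only with all libraries or without control 6 (adjusted p up to 0.085 in edgeR otherwise). Rspo3 shares 404 exonic bases with Gm48159 on the opposite strand.

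Since Hey2 is best known from the ventricular wall, the markers of ventricular muscle were read library by library. Of 11 tested, 1 rose (3.02% of all tested genes did), 1 fell (3.57% did) and 9 did not pass, with a median of -0.07. Myl2 had 18.5 and 8.26 CPM in mutants 5 and 7, against 22.3, 16.3 and 95.9 CPM in controls 2, 4 and 6. The light chain gene Myl3 had 22.3 and 15.4 CPM in mutants 5 and 7, against 124, 67.2 and 145 CPM in controls 2, 4 and 6. Irx4, the ventricular homeobox gene, had 0.218 and 0.117 CPM in mutants 5 and 7, against 0.271, 0.269 and 0.894 CPM in controls 2, 4 and 6. Myl3 and Irx4 were lower in both mutants than in any control, and neither difference passed (adjusted p = 0.076 and 0.25, edgeR). The groups did not overlap in 4 of the 11 markers, near the 37.9% of all tested genes. Irx4 rests on few counts, 8 in mutant 7. Other members lay above 0 without passing, namely the myosin heavy chain gene Myh7 at 0.24 (adjusted p = 0.24, edgeR), Mycn at 0.29 and Irx3 at 0.21, and their groups overlapped. The part of ventricular muscle in the result of Hey2 was not tested. Lbh, a cofactor gene, rose by 0.63 ± 0.08 (SE; adjusted p = 3.2e-03, edgeR), and Cited1 fell by 0.50 ± 0.09 (adjusted p = 0.015, edgeR), which did not pass when control 2 or control 4 was left out (adjusted p up to 0.067 in edgeR). The summed level of the list, most of it Myh7, was 3277 and 2910 CPM in mutants 5 and 7, against 2885, 2484 and 3103 CPM in controls 2, 4 and 6.

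**Figure D5:**
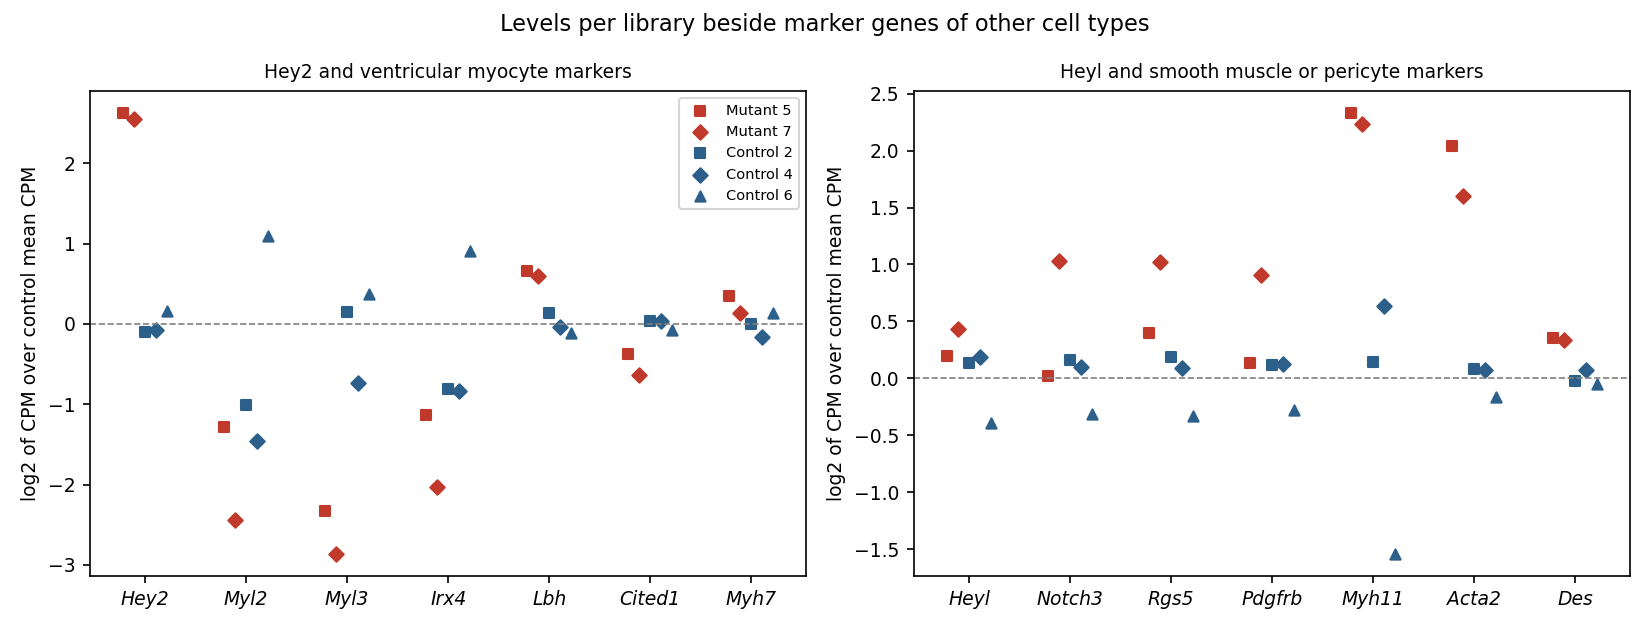
Log2 of each library's CPM over the control mean for Hey2 with ventricular muscle markers (left) and for Heyl with smooth muscle and pericyte markers (right), mutants in red and controls in blue. Both mutants are high for Hey2 and low for Myl3 and Irx4, neither of which passed. The groups did not overlap in 4 of the 11 ventricular markers, near the 37.9% of all tested genes. Of the ventricular markers plotted, which are part of their list, Lbh was called higher and Cited1 lower. Control 6 is the lowest library for Heyl and for the 6 mural markers plotted, but not for the other 5 of the 11 on the mural list.

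Endothelial and mural cell markers are given beside Hey1, Hey2, Heyl and Dll4. Of 14 endothelial and endocardial markers, 2 rose (Eng by 0.38 and Tie1 by 0.33) and 12 did not pass, with a median of 0.25. In 10 of the 14 both mutants lay above every control, against 18.6% of all tested genes, of which 3.02% were called higher. Both calls were lost without any 1 control, and that of Tie1 also without mutant 7 (highest adjusted p = 0.17, edgeR). The summed level of the 14 markers was 3038 and 3472 CPM in mutants 5 and 7, against 2604, 2679 and 2836 CPM in controls 2, 4 and 6, without a test. Of 8 arterial markers 2 rose, Dll4 and Unc5b (3.02% of all tested genes did), with a median of 0.43. The rise of Unc5b by 0.76 did not pass when control 2, control 6 or mutant 7 was left out (adjusted p up to 0.13 in edgeR). The arterial sum was 348 and 453 CPM in mutants 5 and 7, against 275, 309 and 256 CPM in controls 2, 4 and 6.

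Of 11 smooth muscle and pericyte markers, 3 rose (3.02% of all tested genes did) and 8 did not pass, with a median of 0.57. The rises were those of Acta2, the potassium channel regulator gene Abcc9 (by 1.51) and the desmin gene Des (by 0.35), all of which heart muscle can also express. The call of Abcc9 was lost without mutant 7 (adjusted p = 0.059, edgeR) and that of Des without any 1 control (highest adjusted p = 0.14, edgeR). On the opposite strand Abcc9 shares 158 exonic bases with 5330439B14Rik, Des 220 with Gm15179 and Eng 61 with Fpgs. The summed level of the list was 3638 and 3331 CPM in mutants 5 and 7, against 1838, 2006 and 1757 CPM in controls 2, 4 and 6, most of it Acta2 and Des. The pericyte gene Rgs5 had 80.5 and 124 CPM in mutants 5 and 7, against 69.7, 65.3 and 48.7 CPM in controls 2, 4 and 6, and Pdgfrb had 56.9 and 97.4 CPM in mutants, against 56.1, 56.7 and 42.6 CPM in controls. The smooth muscle myosin gene Myh11 had the largest fold change of the list, 2.29 ± 0.67 (SE) on the log2 scale, and did not pass (adjusted p = 0.19, edgeR). It had 29.7 and 27.7 CPM in mutants 5 and 7, against 6.51, 9.14 and 2.03 CPM in controls 2, 4 and 6. Heyl was highest in mutant 7 and lowest in control 6, an order that 3 of the 11 markers shared (Rgs5, Pdgfrb and Notch3). The other 8 had another library at one or both ends, among them Acta2, Myh11 and Des, which were highest in mutant 5. The part of these cell types in the results of Hey2, Heyl, Hey1 and Dll4 was not tested.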

How the data were processed

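Per the labels' protocols, RNA from atrial tissue at postnatal day 1 was purified and made into libraries from polyA RNA with a TruSeq kit. Each of the 5 libraries has a column of raw counts deposited by the authors. The submitters' processing notes name mm9 as the build, and TopHat2 2.0.4, HTSeq 0.5.4p3 and DESeq as tools. The authors also deposited RPKM values, 1 per group, which were not used in a test, and their log2 ratio with a p-value and adjusted p-value. The counting tool's no_feature entry (3.97% to 6.03% of all counts) and ambiguous entry (2.31% to 3.18%) were left out of totals and tests.

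Fits used edgeR 4.0.16 under R 4.3.3. The filter was filterByExpr (minimum count 10, minimum total 15), totals were scaled by TMM, and mutants were compared with controls by the robust quasi-likelihood test (two-sided, no covariate, prior count 0.125). P-values were adjusted by Benjamini-Hochberg over every gene tested, and 0.05 was the threshold. The SE is the fold change over the root of F. An exact permutation test of 2 against 3 libraries cannot go below p = 0.1. The procedure was tested on simulated data. Members and lists were chosen with earlier results of these data known. Named genes are the members, Nkx2-5, up to 6 genes of smallest p per list, Notch1 to Notch4, Jag1, Dll4, Rbpj, and the 5 nearest profiles (mean log2 CPM of at least 1) to each called member. Myl7 and Myl2, the tissue check, fall outside this rule and were picked after their values were seen. Besides Myl2, more than 6 genes of the ventricular list are named, so not all of those fall within the rule. A few genes within the rule are not printed. Emr1, the deposited symbol of Adgre1, was matched by synonym. GENCODE vM21, on another build, served for exon sharing and transcript lengths. Listed spans of genes do not cover whole transcripts. Alternatives were DESeq2's size factors, library totals, 2 other filters, DESeq2 1.42.0, limma-voom (limma 3.58.1), a threshold of 0.01, a prior count of 2, sex as a covariate and each library left out.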

Additional observations from a re-analysis of the deposited data

How the results depend on the processing

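No paired analysis was possible because the groups share no replicate number. Hey2 and Hey1 kept their calls, and Heyl, Hes1 and Nrarp stayed without one, with the same sign, under each of 14 alternatives (log2 fold changes 2.55 to 2.68 for Hey2, -0.68 to -0.54 for Hey1). Hes6 kept its sign (-0.58 to -0.36 with 1 library left out) but had no call without control 2, control 4 or mutant 7, or at the threshold of 0.01 (-0.46, adjusted p = 0.020, edgeR), so 1 to 2 members were called lower with 1 library left out and 1 at 0.01. The cause was not tested. Of the Notch pathway genes, 0 to 12 were called higher with 1 library left out, the 12 without mutant 5, and 0 to 2 lower. With limma-voom 2 were called higher, and at 0.01 the counts were 0 higher and 0 lower. Lower calls numbered 3 with library totals, 3 without a filter, 4 with DESeq2 and 0 with sex as a covariate. Over all tested genes, 203 to 910 were called higher and 306 to 804 lower with 1 library left out. DESeq2 called 960 higher and 1044 lower, and 157 and 234 passed at 0.01. Where a mutant was left out, the other was assumed to vary like the controls. Signs reversed for Notch1 (-0.032 to 0.85 with 1 library left out) and Jag1 (-0.12 to 0.41) without mutant 7 and for Notch2 (-0.37 to 0.13) without mutant 5, none of the reversed values passing. The median of all genes was -0.03 with library totals. By the longest coding transcript, chosen after seeing the data, Hey2 made up 45.1% of the trio in mutants and 11.1% in controls, against 45.7% and 10.97% by deposited length. Hes5 gave no value under any setting. Depth did not limit the other 6 genes, each with 323 or more counts in every library.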

Other observations

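Lists of other cell types of the atrium were read as background for the whole tissue. Of 7 epicardial markers, 5 fell and 2 did not pass, with a median log2 fold change of -0.57, where 3.57% of all tested genes were called lower. The falls were those of Krt19 (-0.79), Upk3b (-0.79), Msln (-0.62), Aldh1a2 (-0.57) and Upk1b (-0.53), and all 5 calls held without any 1 library. Their summed level was 742 and 769 CPM in mutants 5 and 7, against 1244, 1203 and 1072 CPM in controls 2, 4 and 6. Hes6 and Hey1 were lower in the same mutants, and whether epicardial cells had a part in this was not tested.

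Of 8 fibroblast markers, 2 fell, against the same 3.57%, and 6 did not pass, with a median of -0.39. Lum, a matrix proteoglycan gene, fell by 0.92 ± 0.09 (SE) on the log2 scale, and Col3a1 fell by 0.42 ± 0.09. The call of Col3a1 was lost without any 1 control or without mutant 7 (highest adjusted p = 0.12, edgeR). Of 11 markers of cardiac neurons and glia none passed in edgeR, DESeq2 or limma-voom, with a median of -0.38 and 1 at an unadjusted p under 0.05 in edgeR, and the neural gene Elavl4 had the smallest p of them (adjusted p = 0.18, edgeR). Of 6 macrophage and leukocyte markers, 1 rose (3.02% of all tested genes did), Emr1 by 0.40, a call lost without any 1 library (highest adjusted p = 0.17, edgeR).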
